A study of Mus musculus with 10 samples.

Results

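The constitutive proteasome genes are the genes of the 20S core particle and the 19S cap of the standard proteasome, together with the alternative activators Psme3 and Psme4 and the maturation factor Pomp. The list held 34 genes picked by symbol, without the immunoproteasome subunits, and the platform annotation named a probe set for 33 of them. Psmb5 was not analysed here. Each of the 33 genes had 1 probe set, and all 33 passed the intensity filter among 21792 tested probe sets, which stand for 19176 named genes.

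Gene expression was measured in whole subcutaneous tumors of B16OVA, a mouse melanoma line engineered to express ovalbumin. A graft of 500000 cells was placed in female B6 (C57BL/6) mice aged 8 to 10 weeks. The 5 BO-112 tumors were injected with Poly I:C, a synthetic double-stranded RNA, carried in nanoparticles of polyethylenimine, at a stated therapeutic dose of 2.5 mg/kg, and the 5 Vehicle tumors with the same volume of 5% glucose. The methods place RNA extraction at 48 h after the second of 2 intratumoral doses. Hosts and graft carried no other allele or agent in the labels, the graft came from 1 cell line, and a tumor held graft and host cells together. Each tumor gave 1 Clariom S array, and values are log2 RMA expression values, where RMA is the array normalization that the authors applied. Differences are log2 fold changes, BO-112 minus Vehicle.

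The proteasome degrades proteins tagged with ubiquitin. The 20S core is a barrel of alpha rings, which gate its entry, around beta rings, which hold the catalytic sites. The 19S cap binds ubiquitin chains, removes them and feeds the unfolded protein into the core through a ring of ATPases. Under interferon, Psmb8, Psmb9 and Psmb10 take the places of the catalytic subunits Psmb5, Psmb6 and Psmb7 in newly built cores, and the Psme1 and Psme2 activator can replace the cap, which changes the peptides offered to MHC class I.

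No transcript of the constitutive proteasome was higher with BO-112 at a limma adjusted p under 0.05 (Benjamini-Hochberg over all tested probe sets). The unadjusted p was under 0.05 for 1 member with a positive change (Psmb2, beside 10.9% of all tested probe sets), and 2 of 33 members fell, Psmd6 and Psme4. These 2 are 6.06% of the members, where 2.79% of all tested probe sets and 4.68% of the 12287 whose mean over all arrays exceeded 6 were called lower, 2.43% of all were called higher, and 5.22% of all in either direction. All 33 members had a mean above 6. A share of 2 in 33 lies near this background and says nothing of the list as a whole. With 1 mouse left out the count ran from 1 to 6, the 6 without BO-112 mouse 4, and it was 0 in a model that held the array contrast (how often, on an array, the brighter of a positive and a negative control was the positive one).

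Over all members, Psmd6 and Psme4 included, most changes were negative and small. The change was below 0 in 26 of the 33 genes (78.8%), as it was in 47.7% of all tested probe sets and in 61.3% of those with a mean above 6. The median change of the members was -0.18, beside 0.01 over all tested probe sets and -0.10 over those with a mean above 6, and single members ranged from -0.77 to 0.58. All 5 BO-112 tumors lay below all 5 Vehicle tumors for 11 members (33.3%), where this held for 5.3% of all tested probe sets and 8.94% of those with a mean above 6. They were Psma3, Psmb3, Psmc1, Psmc2, Psmc3, Psmc6, Psmd2, Psmd6, Psmd12, Psme3 and Psme4. No member had all BO-112 tumors above all Vehicle tumors, a pattern of 3.39% of all tested probe sets. The unadjusted p was under 0.05 with a negative change for 14 members (42.4%), beside 14.1% of all tested probe sets and 23.4% of those with a mean above 6. Vehicle means of the members ran from 8.69 to 11.5, so they were brighter than that cut requires. No background matched to them in intensity was drawn, and the part of intensity in these shares was not tested.

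**Figure D1:**
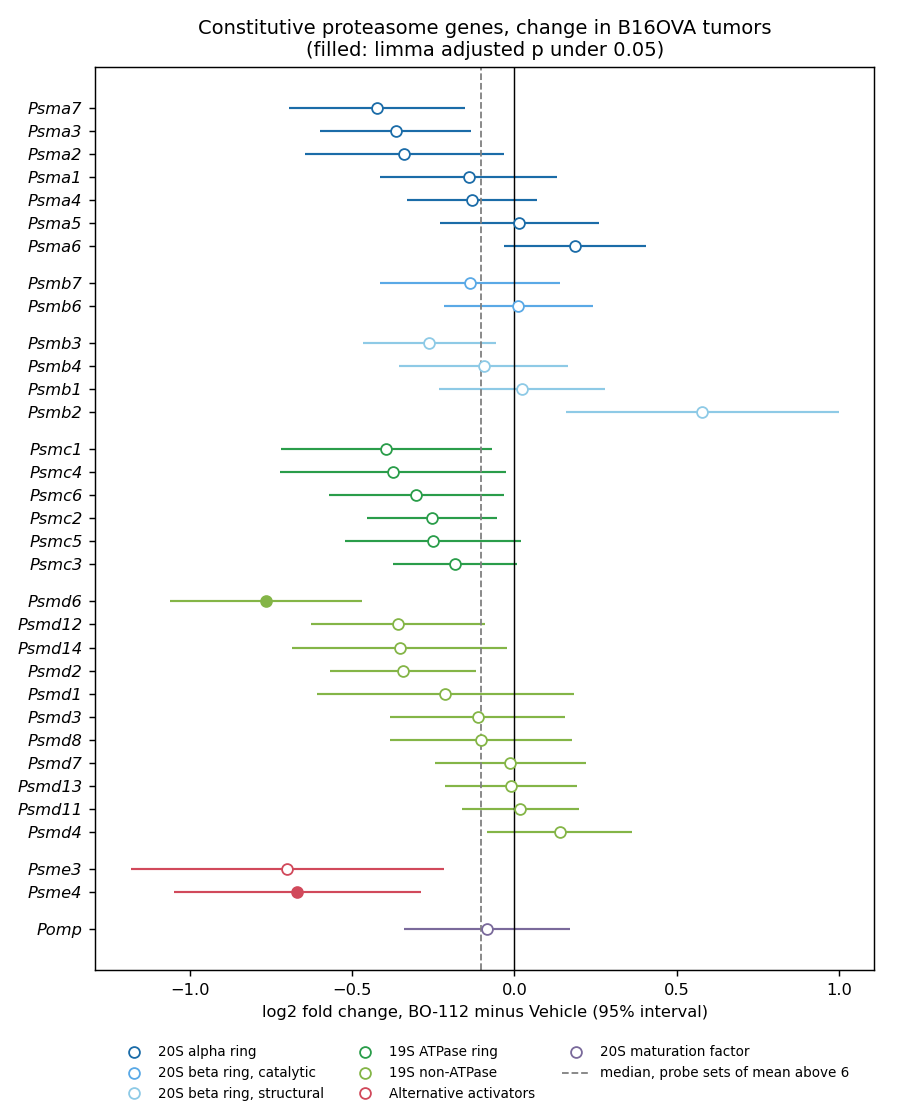
Log2 fold change of the 33 measured members (x axis, BO-112 minus Vehicle, 5 tumors each, bars are 95% intervals), grouped by sub-complex. Psmd6 and Psme4 are filled, as the only members at an adjusted p under 0.05, Psmb2 stands apart at 0.58, and the dashed line marks -0.10, the median of probe sets with a mean above 6.

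The largest fall was that of Psmd6, a lid subunit of the 19S cap. Psmd6 measured 8.31, 8.51, 8.71, 8.85 and 8.20 in BO-112 mice 1 to 5 and 9.08, 9.22, 9.41, 9.36 and 9.35 in Vehicle mice 1 to 5. The groups did not overlap, and the highest BO-112 tumor, mouse 4, lay under the lowest Vehicle tumor, mouse 1. The fall was 0.77 on the log2 scale (change -0.77, SE 0.135, 95% interval -1.06 to -0.47, limma adjusted p = 0.0126), which is 58.8% of the Vehicle level, and Psmd6 was also the 1 member with a B-statistic over 0, beside 0.954% of all tested probe sets lower by that rule. It was called with each mouse left out in turn (adjusted p 0.00657 to 0.0407). Adding the array contrast to the model gave a change of -0.58 and ended the call (adjusted p = 0.204).

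Psme4, the nuclear activator known as PA200, also fell. Its values were 8.14, 7.46, 8.29, 8.27 and 7.96 in BO-112 mice 1 to 5 and 8.35, 8.57, 8.94, 8.74 and 8.87 in Vehicle mice 1 to 5. The groups stood apart by a narrow gap between BO-112 mouse 3 and Vehicle mouse 1, and BO-112 mouse 2 was the lowest tumor. The change was -0.67 (SE 0.174, 95% interval -1.05 to -0.29, limma adjusted p = 0.0486), or 62.9% of the Vehicle level. This call sat at the threshold. It was lost on leaving out any 1 of BO-112 mice 1, 2, 3 and 5 or of Vehicle mice 2, 3, 4 and 5 (adjusted p 0.0541 to 0.123) and when the model held the array contrast (change -0.32, adjusted p = 0.623), and it held without BO-112 mouse 4 (adjusted p = 0.0278) or Vehicle mouse 1 (adjusted p = 0.0440). It was also lost without BO-112 mice 2 and 5 together (-0.46, adjusted p = 0.103), with array weights (adjusted p = 0.0538) and with the robust variance trend (adjusted p = 0.0517).

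Psme3, the other alternative activator (PA28 gamma, a nuclear relative of Psme1 and Psme2), had a change of similar size that missed the threshold. It measured 10.10, 9.42, 10.31, 10.47 and 9.29 in BO-112 mice 1 to 5 and 10.52, 10.62, 10.88, 10.54 and 10.54 in Vehicle mice 1 to 5. All BO-112 tumors were below all Vehicle tumors, by little in mice 3 and 4 and by far in mice 2 and 5, so that the BO-112 SD was 0.53 against 0.15 in Vehicle (n = 5 each). The change was -0.70 (SE 0.220, 95% interval -1.18 to -0.22, limma adjusted p = 0.0839). It was -0.32 (adjusted p = 0.182) without BO-112 mice 2 and 5, -0.27 (adjusted p = 0.819) when the model held the array contrast, and -0.84 (adjusted p = 0.0269) without BO-112 mouse 4.

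**Figure D2:**
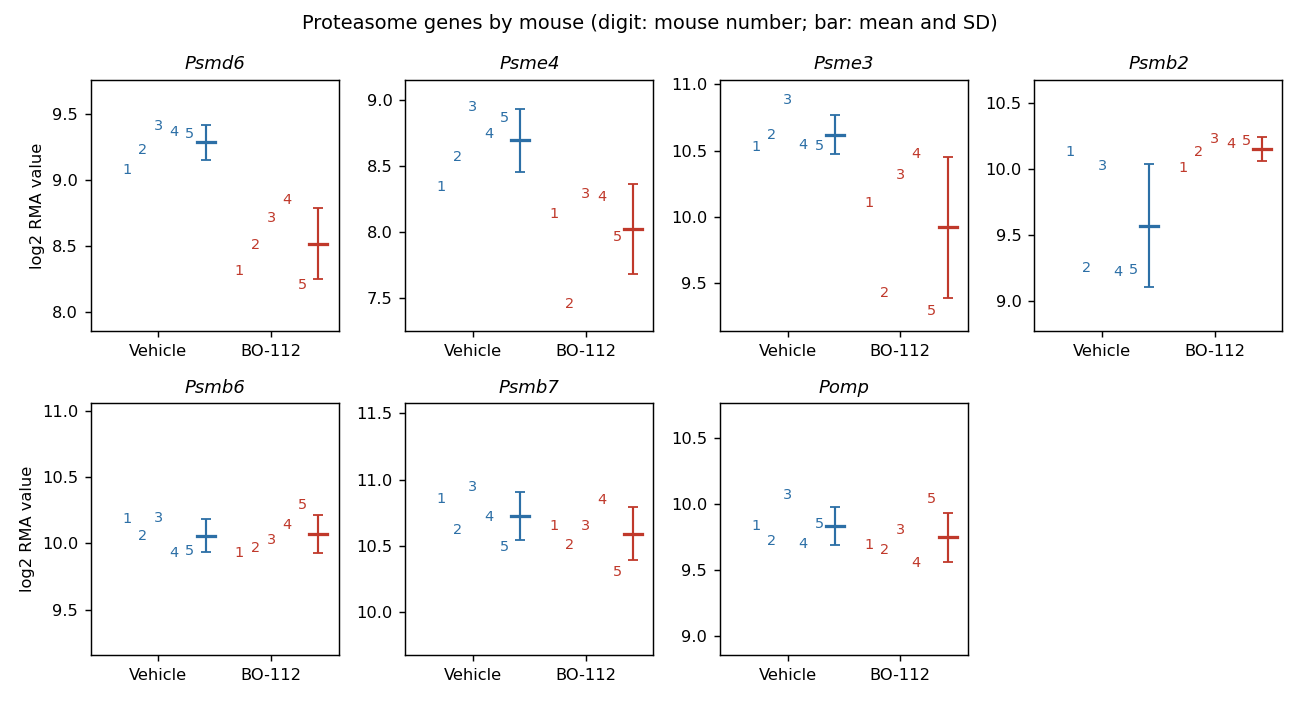
Log2 RMA value (y axis) of the 7 members described mouse by mouse, in Vehicle and BO-112 tumors (digits are mouse numbers, bars the mean and SD of 5 tumors). Psmd6, Psme4 and Psme3 do not overlap between groups, Psmb2 splits the Vehicle tumors with mice 1 and 3 on top, and Psmb6, Psmb7 and Pomp overlap.

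These 3 genes share a promoter feature that was not used to choose them. The ETS core CCGGAAG, the motif of ETS-family factors such as GABPA, was searched on both strands of the RefSeq promoters (GRCm38.p6, 250 bases before to 50 after the start of transcription). It stood in 14 of the 29 promoters listed for 27 of the 33 member genes (48.3%), where 8.86% of all 32851 promoters in the table held it. The 13 genes with it were Pomp, Psma6, Psmc1, Psmc2, Psmc6, Psmd2, Psmd4, Psmd6, Psmd11, Psmd12, Psmd13, Psme3 and Psme4, and they include members on both sides of no change. A match is a run of letters and not a measured binding site. The promoters of Psmd6 (chr14:14120896-14121195, minus strand), Psme4 (chr11:30771525-30771824, plus strand) and Psme3 (chr11:101315963-101316262, plus strand) are shown 5′ to 3′ on the gene's strand with the ETS core, or its reverse complement, in capitals.
Psmd6: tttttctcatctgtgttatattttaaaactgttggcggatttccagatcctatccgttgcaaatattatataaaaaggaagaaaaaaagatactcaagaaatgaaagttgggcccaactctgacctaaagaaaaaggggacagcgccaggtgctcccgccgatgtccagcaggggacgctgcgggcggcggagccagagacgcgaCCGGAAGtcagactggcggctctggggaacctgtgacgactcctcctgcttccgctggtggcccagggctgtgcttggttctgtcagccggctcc
Psme4: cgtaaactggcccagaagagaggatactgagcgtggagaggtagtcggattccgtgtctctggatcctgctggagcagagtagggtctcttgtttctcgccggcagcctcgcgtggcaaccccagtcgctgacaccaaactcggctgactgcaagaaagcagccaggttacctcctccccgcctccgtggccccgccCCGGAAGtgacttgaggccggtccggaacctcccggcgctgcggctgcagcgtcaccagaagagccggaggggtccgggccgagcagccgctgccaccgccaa
Psme3: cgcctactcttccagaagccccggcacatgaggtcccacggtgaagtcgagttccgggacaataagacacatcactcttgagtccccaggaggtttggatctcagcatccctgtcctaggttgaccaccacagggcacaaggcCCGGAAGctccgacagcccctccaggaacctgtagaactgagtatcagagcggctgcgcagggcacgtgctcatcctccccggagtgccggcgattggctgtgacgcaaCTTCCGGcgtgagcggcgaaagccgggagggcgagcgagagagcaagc

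The other motifs were no more frequent among members than elsewhere or rested on few promoters. CCAAT, the letters of the CCAAT box, stood in 11 of the 29 promoters (37.9%, against 37.4% of all), and TGACNNNGC, the core of the antioxidant response element that NRF1 (Nfe2l1) and NRF2 also recognise, in 4 (13.8%, against 12.4%). A shortened interferon-stimulated response element (ISRE), GAAA followed after any 2 bases by GAAA, stood in 2 member promoters, those of Psmb3 and Psmd4 (6.9%, against 3.44%), and TTCNNNGAA, the letters of a STAT site, in 1, that of Psmd2 (3.45%, against 8.3%). No match says only that these letters are absent from this window. Among the promoters of the 5 interferon-inducible partners the ETS core and TGACNNNGC had no match. The ISRE letters matched in 1 of these 5 genes, Psme1, the STAT letters in 1, Psmb8, and CCAAT in 1, Psmb9. The Psme1 promoter (chr14:55578244-55578543, plus strand) is shown with its ISRE match, which lies after the start of transcription, in capitals.
Psme1: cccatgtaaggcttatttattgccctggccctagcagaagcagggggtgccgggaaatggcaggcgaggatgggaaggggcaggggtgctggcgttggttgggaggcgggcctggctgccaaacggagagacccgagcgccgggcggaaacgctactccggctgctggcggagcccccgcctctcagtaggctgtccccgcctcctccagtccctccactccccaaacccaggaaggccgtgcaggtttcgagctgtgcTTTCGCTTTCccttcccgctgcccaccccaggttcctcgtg

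Of the 13 measured genes of the 20S core, 8 had a negative change, none was called, and the median change was -0.13. In the alpha ring, whose subunits gate the channel, 5 of 7 changes were negative with a median of -0.14. Psma7 (-0.42, limma adjusted p = 0.0684), Psma3 (-0.37, adjusted p = 0.0678) and Psma2 (-0.34, adjusted p = 0.161) were at the lower end, and Psma1 (-0.14), Psma4 (-0.13), Psma5 (0.01) and Psma6 (0.19, adjusted p = 0.268) followed. Only Psma3 of these separated the groups, with BO-112 tumors between 9.85 and 10.29 and Vehicle tumors between 10.36 and 10.58.

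Of the catalytic subunits that immunoproteasome subunits replace, Psmb5 was not analysed, and neither Psmb6 nor Psmb7 was called. Psmb6, the caspase-like subunit, measured 9.93, 9.97, 10.03, 10.14 and 10.29 in BO-112 mice 1 to 5 and 10.18, 10.06, 10.19, 9.93 and 9.94 in Vehicle mice 1 to 5. The groups overlapped throughout, and the change was 0.01 (SE 0.105, limma adjusted p = 0.957), whose 95% interval of -0.22 to 0.24 bounds the difference on either side. The sign of so small a change turned with several settings, among them median centring (-0.08).

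Psmb7, the trypsin-like subunit, measured 10.65, 10.50, 10.65, 10.84 and 10.30 in BO-112 mice 1 to 5 and 10.86, 10.62, 10.95, 10.72 and 10.49 in Vehicle mice 1 to 5. The ranges overlapped, with BO-112 mouse 5 the lowest tumor and Vehicle mouse 3 the highest. The change was -0.14 (SE 0.127, 95% interval -0.41 to 0.14, limma adjusted p = 0.529).

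The structural beta subunits held the largest positive change of the list. Psmb2 measured 10.004, 10.13, 10.22, 10.19 and 10.21 in BO-112 mice 1 to 5 and 10.13, 9.25, 10.02, 9.22 and 9.23 in Vehicle mice 1 to 5. Vehicle mice 1 and 3 lay within the BO-112 range and the other 3 Vehicle tumors well below it. The change of 0.58 (SE 0.192, 95% interval 0.16 to 0.9996) missed the threshold (limma adjusted p = 0.0949), and it was 0.72 (adjusted p = 0.0463) without Vehicle mouse 1. Psmb3 (-0.26, adjusted p = 0.114) had BO-112 tumors between 8.97 and 9.30 and Vehicle tumors between 9.33 and 9.49, and Psmb4 (-0.10) and Psmb1 (0.02) overlapped.

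Pomp, the chaperone that helps to complete the core of new standard and immunoproteasomes alike, measured 9.69, 9.66, 9.81, 9.55 and 10.04 in BO-112 mice 1 to 5 and 9.84, 9.72, 10.07, 9.70 and 9.85 in Vehicle mice 1 to 5. The highest and lowest Pomp values of BO-112 tumors, mice 5 and 4, enclosed 4 of the 5 Vehicle tumors. The change was -0.08 (SE 0.117, 95% interval -0.34 to 0.17, limma adjusted p = 0.687).

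Of the 17 genes of the 19S cap, 15 had a negative change, with a median of -0.25, and 1, Psmd6, was called. The difference between cap and core was not tested. All 6 ATPases of the base, the motor that unfolds substrates, had negative changes in a close range, from -0.39 in Psmc1 and -0.38 in Psmc4 through Psmc6 (-0.30), Psmc2 (-0.25) and Psmc5 (-0.25) to -0.18 in Psmc3, with a median of -0.28. None was called (limma adjusted p 0.115 to 0.232), and Psmc1, Psmc2, Psmc3 and Psmc6 separated the groups. For Psmc2, the BO-112 tumors lay between 10.50 and 10.72 and the Vehicle tumors between 10.73 and 10.95. The gap between these ranges was narrower than the SE of the change of Psmc2 (0.0911).

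Among the 11 non-ATPase cap genes, 9 changes were negative. Besides Psmd6, the scaffold Psmd2, which docks ubiquitin shuttles, had BO-112 tumors between 10.004 and 10.35 and Vehicle tumors between 10.41 and 10.75 (change -0.34, limma adjusted p = 0.0743). The lid subunit Psmd12 (-0.36, adjusted p = 0.101) also separated the groups, and Psmd14, the deubiquitinase of the lid, did not (-0.35, adjusted p = 0.176). Psmd1 (-0.21), Psmd3 (-0.11), Psmd8 (-0.10), Psmd7 (-0.01) and Psmd13 (-0.01) lay nearer to no change, and Psmd11 (0.02) and the ubiquitin receptor Psmd4 (0.14, adjusted p = 0.420) were on the positive side.

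Seen tumor by tumor, the lower values were unevenly shared. Relative to the Vehicle mean of each gene, the median of the 33 members was -0.17, -0.24, -0.10, -0.05 and -0.34 in BO-112 mice 1 to 5 and 0.01, -0.06, 0.14, -0.06 and -0.05 in Vehicle mice 1 to 5. The same median over probe sets with a mean above 6 was -0.07, -0.23, -0.05, 0.01 and -0.23 in BO-112 mice 1 to 5. BO-112 mice 5 and 2, with the lowest values on both measures, were the lowest tumor of their group for 13 and 9 members, and mouse 4 was the highest of the group for 19.

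**Figure D3:**
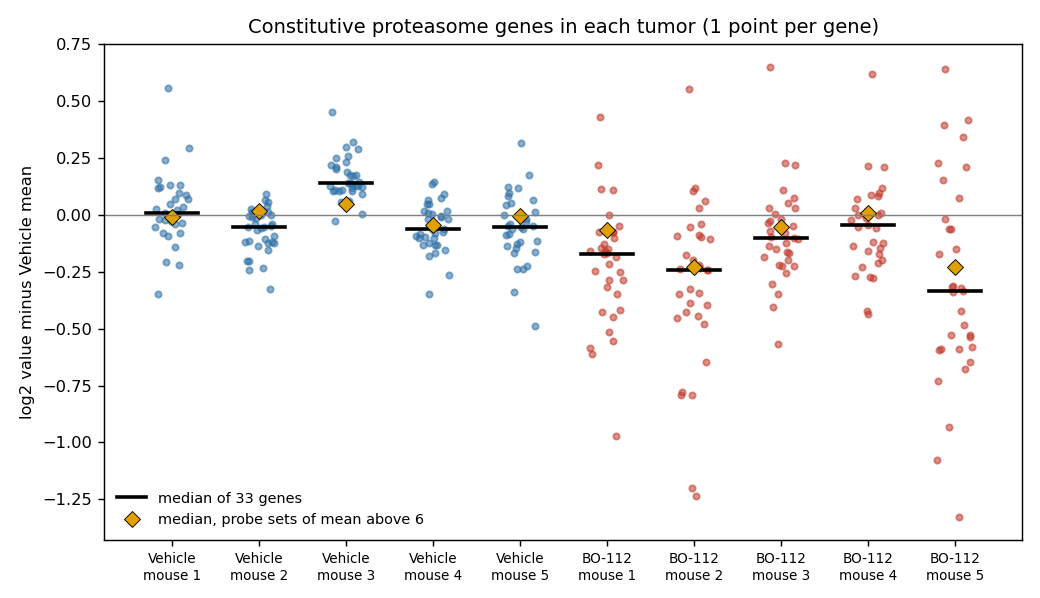
Deviation of each of 33 members from its Vehicle mean (y axis, log2) in each tumor, with the median of the members (black line) and of probe sets with a mean above 6 (yellow diamond). The members' medians lie between -0.34 (BO-112 mouse 5) and 0.14 (Vehicle mouse 3), and in BO-112 mice 2 and 5 the general median is itself -0.23.

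The arrays of BO-112 mice 2 and 5 also had the lowest contrast between positive and negative control probe sets (0.845 and 0.855, against 0.867 to 0.891 in the other 8 arrays), and the part of array contrast in these differences was not tested beyond the covariate. In a count chosen after seeing the data, 25 members had a negative change without those 2 mice, beside 52.0% of all tested probe sets, and in that fit 1 member, Psmd6, was called. Vehicle mouse 3 was the highest of its group for 26 members and the highest of all 10 tumors for 18.

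Markers of cell types and of proliferation were read beside the members. In whole tumors, fewer cells of a type and less RNA per cell cannot be told apart. All 7 melanocyte markers exceeded the negative controls (the 75th percentile of those probe sets) on all arrays and none was called. The change was negative for 6 of them, with a median of -0.35, and their summed level ranged from 14.4 to 15.4 (log2) in BO-112 and from 15.4 to 15.5 in Vehicle tumors. Of 4 measured proliferation genes, 2 fell (Top2a and Ccna2), with a summed level of 11.0 to 12.4 in BO-112 and 12.5 to 12.8 in Vehicle tumors. BO-112 mouse 5 was the lowest of the 10 tumors for all 7 melanocyte markers and all 4 proliferation genes.

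Of 6 measured T and NK cell markers, 2 rose (Cd3g and Cd8a), with a summed level of 8.82 to 11.4 in BO-112 and 7.66 to 8.58 in Vehicle tumors. BO-112 mouse 5 was the highest of the 10 tumors for all 6 of these markers. Among 5 markers of macrophages and monocytes, 1 was higher (Ly6c2) and 1 lower (Mrc1) at the threshold (10.6 to 13.0 against 9.39 to 11.6). None was called among 6 neutrophil markers (8.28 to 10.7 against 7.98 to 8.76), 4 fibroblast markers (10.5 to 13.4 against 9.18 to 12.9), 4 endothelial markers (9.43 to 10.7 against 8.91 to 9.71), 6 skeletal muscle markers (9.19 to 14.4 against 9.28 to 12.8) and 5 keratinocyte markers (8.11 to 12.8 against 7.93 to 11.4). Many of these markers lay near the background: 0 of 6 T and NK cell, 2 of 5 macrophage and monocyte, 1 of 6 neutrophil, 3 of 4 fibroblast, 3 of 4 endothelial, 2 of 6 skeletal muscle and 0 of 5 keratinocyte markers exceeded the negative controls on all arrays, and Mmp8 (neutrophil) and Tek (endothelial) did so on none. The part of these lists in the proteasome differences was not tested.

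The 5 interferon-inducible partners had changes of the opposite sign. All were positive, from 0.82 in Psme1 to 1.79 in Psmb9, and Psmb9 alone was called (SE 0.460, limma adjusted p = 0.0479, beside 2.43% of all tested probe sets called higher). Psmb9 measured 8.71, 8.81, 9.47, 9.40 and 9.55 in BO-112 mice 1 to 5 and 8.77, 6.49, 8.49, 6.90 and 6.35 in Vehicle mice 1 to 5. Vehicle mice 1 and 3 were high for all 5 partners, as they were for Psmb2. The call of Psmb9 was kept in 3 of 10 fits with a mouse left out, those without BO-112 mouse 4, Vehicle mouse 1 and Vehicle mouse 3, and in the other 7 the adjusted p was 0.0757 to 0.115. Over all 19 alternative fits it was kept in 7, and among those that ended it were median centring (1.70, adjusted p = 0.0529), the robust variance trend (adjusted p = 0.0586), leaving out BO-112 mice 2 and 5 together (1.79, adjusted p = 0.107) and the array contrast (1.38, adjusted p = 0.529).

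Psmb8 (1.76, limma adjusted p = 0.0761) measured 9.32, 9.86, 10.22, 9.96 and 10.66 in BO-112 mice 1 to 5 and 9.66, 7.66, 9.60, 7.60 and 6.71 in Vehicle mice 1 to 5. Psmb10 (1.23, adjusted p = 0.118) measured 9.59, 9.62, 10.17, 10.24 and 10.11 in BO-112 mice 1 to 5 and 10.04, 8.29, 9.81, 7.80 and 7.66 in Vehicle mice 1 to 5. Both overlapped between groups through Vehicle mice 1 and 3. Psme1 (0.82, adjusted p = 0.0516) measured 11.68, 11.64, 11.96, 12.01 and 11.96 in BO-112 mice 1 to 5 and 11.61, 10.73, 11.56, 10.73 and 10.53 in Vehicle mice 1 to 5, without overlap. Psme2 (1.09, adjusted p = 0.0661) measured 9.63, 9.31, 9.92, 9.73 and 10.08 in BO-112 mice 1 to 5 and 9.45, 8.26, 9.48, 8.05 and 7.97 in Vehicle mice 1 to 5, with BO-112 mouse 2 below Vehicle mice 1 and 3.

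Whether partner and constitutive gene changed unequally was tested within tumors, by the difference of their log2 values in each mouse (two-sided exact permutation test over mice, 4 pairs, Benjamini-Hochberg over the pairs). It compares changes and not levels. The change of Psmb9 exceeded that of Psmb6 by 1.78 (SE 0.483, exact p = 0.00794, adjusted p = 0.0106). The difference was higher in 5 of 5 BO-112 tumors than in any Vehicle tumor, and the p is the smallest that 5 against 5 mice can give.

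The change of Psme1 exceeded that of Psme3 by 1.52 (SE 0.303) and the change of Psme2 exceeded it by 1.79 (SE 0.407), each in 5 of 5 BO-112 tumors (exact permutation p = 0.00794, adjusted p = 0.0106). These 2 pairs share Psme3, a related activator and not a subunit whose place Psme1 and Psme2 take. The change of Psmb10 exceeded that of Psmb7 by 1.36 (SE 0.461, exact permutation p = 0.0238, adjusted p = 0.0238), with 3 of 5 BO-112 tumors above all Vehicle tumors. This last pair lost its call without BO-112 mouse 3 (1.32, adjusted p = 0.0635), mouse 4 (1.36, adjusted p = 0.0556) or mouse 5 (1.25, adjusted p = 0.0635), in exact permutation tests. None of the pairs was tested with the array contrast as a covariate.

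**Figure D4:**
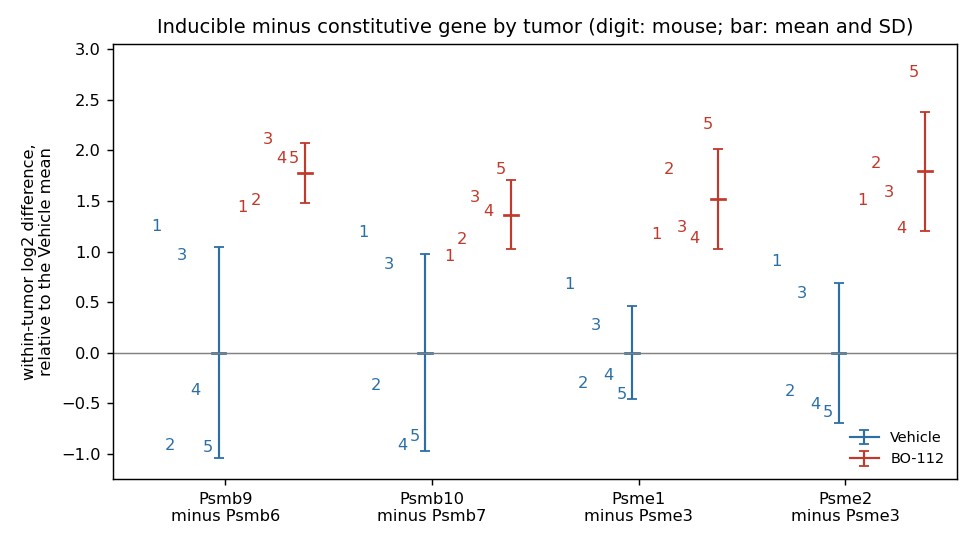
Difference of log2 values within each tumor between an inducible and a constitutive gene, relative to the Vehicle mean (y axis, digits are mouse numbers, bars the mean and SD of 5 tumors). The constitutive gene is the subunit replaced (Psmb6 or Psmb7) or a related activator (Psme3). The BO-112 means are 1.78, 1.36, 1.52 and 1.79, and in every pair Vehicle mice 1 and 3 are the highest of their group.

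Of 51 other listed genes of the ubiquitin-proteasome system 42 were measured, and 34 of these exceeded the negative controls on all arrays. In the limma fit 2 fell (beside 2.79% of all tested probe sets) and 0 rose, 1 having a positive change at an unadjusted p under 0.05, while 31 had a negative change and the median change was -0.19. Ube3c, a ubiquitin ligase that works at the proteasome, measured 9.50, 8.89, 9.52, 9.69 and 9.04 in BO-112 mice 1 to 5 and 9.90, 9.90, 9.93, 10.12 and 10.08 in Vehicle mice 1 to 5, without overlap. Its change was -0.65 (SE 0.154, limma adjusted p = 0.0361), and the call was lost without any 1 of BO-112 mice 1, 2 and 5 or of the Vehicle mice (adjusted p 0.0569 to 0.0947), without BO-112 mice 2 and 5 together (-0.41, adjusted p = 0.0505) and when the model held the array contrast (-0.35, adjusted p = 0.500).

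Blmh, an aminopeptidase that trims peptides downstream of the proteasome, measured 8.99, 9.47, 9.20, 9.36 and 8.56 in BO-112 mice 1 to 5 and 9.63, 9.82, 9.79, 10.04 and 9.93 in Vehicle mice 1 to 5, without overlap. Its change was -0.73 (SE 0.165, limma adjusted p = 0.0322), and the call was lost without any 1 of BO-112 mice 1 and 3 or of Vehicle mice 2, 3, 4 and 5 (adjusted p 0.0521 to 0.0836), with quantile normalization (-0.61, adjusted p = 0.0565) and when the model held the array contrast (-0.63, adjusted p = 0.369). All 5 measured receptors and deubiquitinases bound to the cap had negative changes (median -0.63), as had all 5 shuttle receptors that carry substrates to it (median -0.49, lowest p Ubqln2, -0.63, adjusted p = 0.0798). Of these shuttle receptors 3 exceeded the negative controls on all arrays, Ubqln2 did so on 9 and Ddi1 on 0.

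All 7 genes of the unfoldase Vcp and its cofactors had negative changes (median -0.26, lowest p Faf1, -0.48, adjusted p = 0.0645). The ubiquitin-activating enzyme Uba6 (-0.65, adjusted p = 0.0892, limma) was the 1 measured gene of its list. Among 7 measured assembly chaperones Psmd5 had the lowest p (-0.58, adjusted p = 0.103) and the median was -0.01. That median is the change of Psmg4, which like Psmg3 exceeded the negative controls on 0 arrays, while 5 of the 7 did so on all arrays.

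Nfe2l1, which encodes NRF1, the factor that raises proteasome genes when proteasome activity falls short, had a change of 0.18 (limma adjusted p = 0.324), and 4 of 6 measured genes of its list had positive changes. In this list Maff exceeded the negative controls on 0 arrays and Ngly1 on 5, and the other genes did so on all arrays. Of the adaptor and inhibitor genes Ecpas had the lowest p (change -0.15, adjusted p = 0.474). Psmb11, the thymus-specific catalytic subunit, exceeded the negative controls on 0 arrays (change 0.17, adjusted p = 0.610).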

How the data were processed

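Total RNA of 10 tumors (5 BO-112, 5 Vehicle) was hybridized to Clariom S Mouse arrays. The authors deposited 1 log2 value for each probe set and array, normalized by RMA. This method removes most of a shift shared by all transcripts and compresses dim values. Its settings are not given in the sources used here. The groups came from the sample titles, and 0 columns were left unused. Control probe sets (6923 of 29129) were set aside. The study's filter (above 4 in 3 or more arrays of 1 group), applied here to the deposited values, kept 21792 of 22206 probe sets. The count that the study states after this filter is slightly lower. The platform annotation gave 1 symbol to 19239 of these and none to 2553, and a lookup by gene identifier changed 0 symbols. Precision is limited by the number of arrays, which count no molecules.

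Differences were tested two-sided by limma's moderated linear model (version 3.58.1, R 4.3.3) with group as the single term (Benjamini-Hochberg at 0.05, prior proportion 0.01 for the B-statistic). All adjusted p-values of single genes come from limma. Pairs were tested by exact permutation over mice, enumerated in Python 3.11.15, and the pair of Psmb8 with Psmb5 was not run. Alternatives covered the filter, median centring, quantile normalization, a robust variance trend, array weights, the mouse number as a block, left-out mice, the array contrast (how often a positive control probe set outshines a negative control one) as a covariate, and the B-statistic. On simulated data with 21792 probe sets for BO-112 against Vehicle, 73 of 100 probe sets shifted by 1 and 98 of 100 shifted by 2 (log2) were recovered, with 13 unshifted probe sets called.

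The members and gene lists were chosen with earlier results of these data known. Described mouse by mouse were Psmb6, Psmb7, Psme3, Psme4, Pomp, members at an adjusted p under 0.05, the 2 largest other changes and the partners, and of each further list the called genes or the 1 of lowest p.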

Additional observations from a re-analysis of the deposited data

Results flagged for a closer look

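Among the members and partners, 76 sets of 5 tumors were examined for a tumor far from the rest of its group, by the gap to its nearest neighbour as a share of the group's range. Chance alone picks out about 1 in 20 such sets, and 5 stood out. BO-112 mouse 5 accounted for 4 of them. It was the highest of its group for Psmb1 at 10.68 (the next BO-112 tumor was at 10.22), and the lowest for Psmc5 at 8.59 (next 8.94), Psmc6 at 9.33 (next 9.60) and Psmd7 at 11.17 (next 11.49). The array of BO-112 mouse 5 had a contrast of 0.855. This tumor was also the lowest of all 10 for the 7 melanocyte markers (Tyr at 9.33). It was the highest of all 10 for the 6 measured T and NK cell markers (Cd8a at 10.43). The part of array contrast or of cell content in these values was not tested. The remaining flagged set was that of Psme3 in Vehicle, where mouse 3 was the highest of its group at 10.88 (next 10.62).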

How the results depend on the processing

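The median change of the members stayed negative under all 19 alternative fits (-0.27 to -0.07), with 22 to 30 members negative. The value nearest 0, -0.07 with 22 members negative, came with quantile normalization, where the median over all tested probe sets was -0.03. The lowest, -0.27 with 30 members negative, came with median centring, where that median was -0.07. Psmd6 was called in 17 of the 19 (limma adjusted p = 0.204 with the array contrast and 0.0538 with the replicate block) and Psme4 in 6. The number of members called lower, 2 as reported, was 0 with the array contrast as covariate and 0 with the replicate block, 1 with the robust trend, 1 without BO-112 mice 2 and 5, 1 at B over 0, and 4 with median centring (Psma3 and Psmb3 in addition). With a mouse left out it ran from 1 to 6: 6 without BO-112 mouse 4 (Psma3, Psma7, Psmd6, Psmd12, Psme3 and Psme4), 2 without Vehicle mouse 1 and 1, Psmd6, in the other 8. The number called higher ran from 0 to 1 (Psmb2, without Vehicle mouse 1). Of the other ubiquitin-proteasome genes, 2 lower as reported, 0 were lower with the array contrast, 0 with the block, 0 at B over 0 and 1 with quantile normalization, and 0 to 8 with a mouse left out (8 on leaving out BO-112 mouse 4, 1 for mouse 2, 3 or 5 of BO-112 or mouse 1 of Vehicle, and 0 for BO-112 mouse 1 or any of Vehicle mice 2 to 5). Over all probe sets the 1138 calls became 27 with the array contrast, 1726 with array weights, 102 with the block and 475 at B over 0. With a mouse left out they ran from 347 to 3134 (446 and 591 without BO-112 mice 1 and 2, 3134 without BO-112 mouse 4, and 347, 404, 371 and 380 without Vehicle mice 2 to 5). The causes were not tested.

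Sample titles number the mice within a group and do not say that equal numbers pair mice. The deviations of same-numbered mice from their group means correlated at -0.310, -0.087, 0.387, -0.215 and -0.261 over probe sets, and 1 of 5 matched its own number best. So few correlations cannot decide whether mice were paired, and the main fit used no pairing. The replicate block ended the limma calls of Psme4 (adjusted p = 0.0858), Psmb9 (0.0959), Ube3c (0.0845) and Blmh (0.0799) as well. Under this block, an exact sign-flip test that cannot go below p = 0.0625, the 4 pair differences kept their size (1.78, 1.36, 1.52 and 1.79) with adjusted p of 0.0833, 0.125, 0.0833 and 0.0833. With a mouse left out they ran from 1.54 to 2.09 (Psmb9 against Psmb6), 1.14 to 1.66 (Psmb10 against Psmb7), 1.33 to 1.69 (Psme1 against Psme3) and 1.55 to 2.02 (Psme2 against Psme3). Psmb10 against Psmb7 was 1.29 (exact permutation, adjusted p = 0.0536) without BO-112 mice 2 and 5.

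Changes near 0 turned sign. Psmb6 (0.01) was -0.017 with the array contrast, -0.035 with array weights, -0.075 with median centring, -0.027 without BO-112 mice 2 and 5, and -0.043 to 0.047 with a mouse left out. Ecpas was 0.029 with the array contrast and 0.014 without BO-112 mice 2 and 5, Psmb11 -0.066 and -0.065 likewise, and Pomp 0.012 with quantile normalization. Each gene had 1 probe set, so another choice of probe set could not be tried.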
